A study of Mus musculus with 20 samples.

Results

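The proteasome genes are the 50 of 24059 genes in these mouse left ventricle counts whose symbols begin with Psma, Psmb, Psmc, Psmd, Psme, Psmf or Psmg and a digit. The rule itself used names alone and no measured value, though it was set with earlier results of these data known. It took in 47 constitutive and accessory genes and 3 immunoproteasome genes (Psmb8, Psmb9 and Psmb10), which are described apart. Psmc3ip has a matching symbol but is a meiotic recombination cofactor and no proteasome subunit. All mice were male and C57BL/6, at roughly 9 to 13 weeks of age. The controls, GRflox, carried the floxed glucocorticoid receptor gene (GRfl/fl) and no Cre. CardioGRKO mice carried the same floxed alleles and alphaMHCCre/+, a Cre under the cardiomyocyte-active promoter of alpha myosin heavy chain. No group had Cre without the floxed gene, so an effect of Cre itself and of receptor loss cannot be told apart. Hearts were taken when the lights came on (ZT0) or went off (ZT12), and each of the 4 groups has 5 RNA-seq libraries. Libraries are not tied to animals in the labels, so p-values measure the spread between libraries.

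The proteasome is the barrel-shaped protease that degrades ubiquitin-tagged proteins. Its 20S core has outer alpha rings that gate the entrance and inner beta rings that hold the active sites. A 19S cap recognises ubiquitin, removes it and unfolds the substrate with a ring of ATPases. Other caps, PA28 and PA200, open the core without ATP. Immune signals such as interferon-gamma raise Psmb8, Psmb9 and Psmb10, whose products replace the catalytic subunits of Psmb5, Psmb6 and Psmb7 when new cores are built. In heart muscle the proteasome is a main route for turnover of contractile and regulatory proteins.

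Total counts ran from 5854462 to 37648421 per library with a median of 23223656, and proteasome genes took 0.352% to 0.391% of them. The shallowest library, CardioGRKO ZT0 replicate 1, also has a different number in its deposited file name from the other 19 libraries, and what that number marks is not given. Levels are given as CPM, the count as a share of its library's total after TMM scaling. Nr3c1, the targeted receptor gene, lay at 105.9 to 122.5 CPM in the GRflox libraries at ZT0 and at 51.9 to 61.1 CPM in those of CardioGRKO. At ZT12 it lay at 95.3 to 117.5 and 46.8 to 55.9 CPM, so every CardioGRKO library was below every GRflox library. A set of 6 cardiomyocyte markers summed to 77290 to 96690 CPM. No marker of a heart chamber was read, so the left ventricle label itself was not checked. Of the members, 49 passed the filter on low counts and were tested among 14007 genes. Psmb11, the thymus-specific catalytic subunit, had 0 reads in every library.

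Between genotypes, the members with the largest changes were a cap gene and an inducible core subunit gene. Psme4, which encodes the PA200 cap, fell in CardioGRKO at both times, to 1.49-fold lower at ZT0 and 1.65-fold lower at ZT12. Psmb10, the immunoproteasome's trypsin-like subunit, rose at both times, by 1.36-fold and 1.46-fold. Psme1, a chain of the PA28 cap, fell 1.18-fold and 1.17-fold, and Psma5, an alpha ring subunit, rose 1.14-fold and 1.16-fold. Most of the 20S and 19S subunits stayed within 0.2 of their GRflox level on the log2 scale. How many of all genes did so was not counted. In bulk tissue, fewer cells of a type and less RNA per cell cannot be told apart.

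A gene was called when the adjusted p of edgeR's quasi-likelihood test with Benjamini-Hochberg adjustment over all genes tested was under 0.05. At ZT0, 8 of 49 members were called (16.3%), 6 higher and 2 lower, beside 14.7% of all genes tested (7.36% higher and 7.35% lower). At ZT12, 7 of 49 members were called (14.3%), 2 higher and 5 lower, beside 21.1% of all genes tested (10.4% higher and 10.7% lower). The share of members called was thus near the background at ZT0 and below it at ZT12. The median log2 fold change of the members was 0.04 at ZT0 and 0.02 at ZT12, beside -0.0061 and 0.0042 for all genes. Psma5, Psmb10, Psme1 and Psme4 were called in the same direction at both times, none was called in opposite directions, and 38 of 49 were called at neither time. The matching shares over all genes tested were not counted, so these counts do not set the members apart from other genes.

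**Figure D1:**
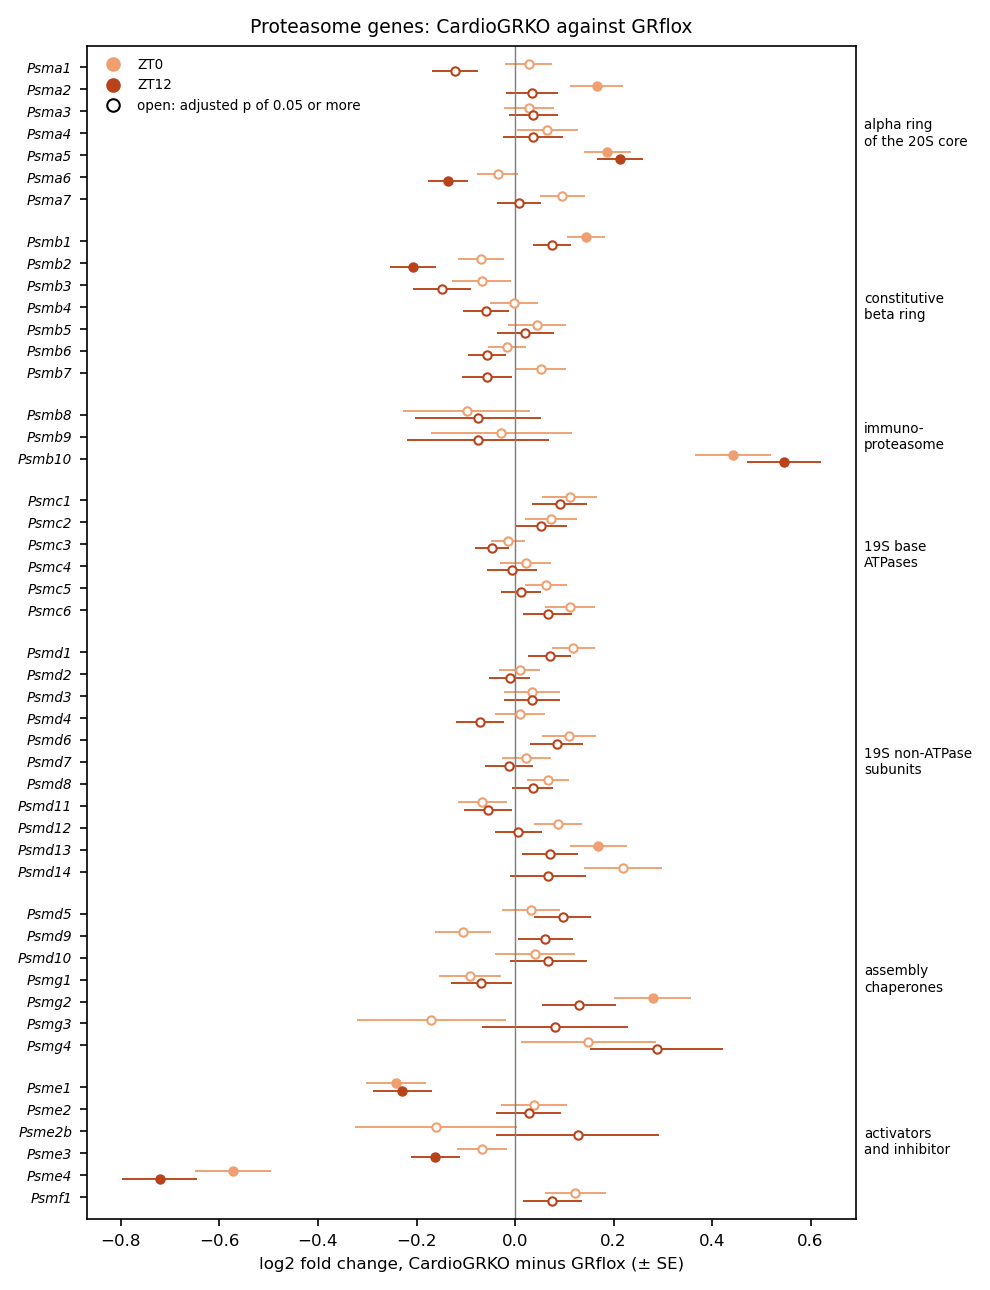
Log2 fold change of 47 proteasome genes in CardioGRKO against GRflox (x axis, ± SE) at ZT0 (light) and ZT12 (dark), grouped by role, with filled points for adjusted p under 0.05. The genes drawn are the tested members without Psma8 and Psmc3ip, and include Psmb8, Psmb9 and Psmb10. Psme4 lies farthest left and Psmb10 farthest right at both times, while the 31 constitutive 20S and 19S subunits lie between -0.21 and 0.22.

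The start regions of the 4 genes called at both times are shown so that their letters can be read. A link between these letters and the expression changes was not tested. Each runs from 250 bases before to 50 bases after the RefSeq start on GRCm38.p6 and is written 5′ to 3′ in the direction of the gene. Capitals mark a match to an antioxidant response element core (TGACNNNGC, the kind of site bound by NRF1 and NRF2) in Psme4, where it lies on the opposite strand, and to an interferon regulatory factor motif (GAAA repeated after 2 bases of any kind) in Psme1, also on the opposite strand. The Psmb10 and Psma5 windows hold no match to either motif, nor to a glucocorticoid response element (GNACA, 3 bases of any kind, then TGTNC), on either strand. The windows lie at chr11:30771525-30771824, plus strand for Psme4, chr8:105938343-105938642, minus strand for Psmb10, chr14:55578244-55578543, plus strand for Psme1 and chr3:108256676-108256975, plus strand for Psma5.
Psme4: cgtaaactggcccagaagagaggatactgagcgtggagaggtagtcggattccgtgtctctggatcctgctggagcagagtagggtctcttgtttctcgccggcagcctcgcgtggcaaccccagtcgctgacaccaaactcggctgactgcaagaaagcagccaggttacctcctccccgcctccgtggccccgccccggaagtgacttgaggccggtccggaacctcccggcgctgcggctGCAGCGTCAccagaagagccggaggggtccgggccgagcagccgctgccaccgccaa
Psmb10: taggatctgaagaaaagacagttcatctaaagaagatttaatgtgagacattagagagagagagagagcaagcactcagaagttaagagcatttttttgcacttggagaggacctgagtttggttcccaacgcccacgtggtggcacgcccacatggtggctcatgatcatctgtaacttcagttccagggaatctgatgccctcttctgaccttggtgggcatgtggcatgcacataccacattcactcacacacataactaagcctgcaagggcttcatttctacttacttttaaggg
Psme1: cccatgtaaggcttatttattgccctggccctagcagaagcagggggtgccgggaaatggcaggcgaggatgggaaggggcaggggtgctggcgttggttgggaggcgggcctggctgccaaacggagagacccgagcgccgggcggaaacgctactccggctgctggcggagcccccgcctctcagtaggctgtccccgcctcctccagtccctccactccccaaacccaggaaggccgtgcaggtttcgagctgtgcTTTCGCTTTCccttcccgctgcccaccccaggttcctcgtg
Psma5: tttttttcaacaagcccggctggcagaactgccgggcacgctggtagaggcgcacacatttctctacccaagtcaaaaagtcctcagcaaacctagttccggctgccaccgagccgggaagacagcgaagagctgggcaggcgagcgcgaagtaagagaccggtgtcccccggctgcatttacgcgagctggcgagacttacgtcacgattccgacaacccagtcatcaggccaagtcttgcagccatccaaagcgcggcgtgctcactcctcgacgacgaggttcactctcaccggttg

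Promoter windows were found for 42 of the 50 members. The antioxidant element core was in 6 of them (Psmb5, Psmb6, Psmc6, Psmd12, Psmd9 and Psme4), beside 14.0% of all 27025 genes with a window. The interferon regulatory factor motif was in 5 (Psmb3, Psmd4, Psmd9, Psme1 and Psmg4), beside 3.99% of genes. The glucocorticoid element was in 1, Psme2b, beside 0.54% of genes. A match describes letters only and shows no binding, and the windows shown differ in composition: GC content was 65.3% for Psme4, 66.3% for Psme1, 59.0% for Psma5 and 45.7% for Psmb10, beside a median of 52.7% over all windows.

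Psme4 encodes PA200, a large nuclear cap of the 20S core that works without ATP and has been tied to histone turnover. The gene spans chr11:30771775-30881150 on the plus strand. Its 5 GRflox libraries at ZT0 held 390.0, 410.0, 446, 357 and 355 CPM, and the 5 CardioGRKO libraries 246, 298, 268, 231 and 273 CPM. All CardioGRKO libraries were below all GRflox libraries. The means were 392 ± 37.99 and 263 ± 25.8 CPM (SD, n = 5 each), a log2 fold change of -0.57 ± 0.08 (SE, edgeR adjusted p = 1.24e-05).

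At ZT12 the GRflox libraries of Psme4 held 499.6, 401, 484, 452 and 528 CPM, against 287, 289, 263, 276 and 320.2 CPM in CardioGRKO. The genotypes again did not overlap, and the gap was wider than at ZT0. The means were 473 ± 48.7 and 287 ± 21.3 CPM (SD, n = 5 each), with a log2 fold change of -0.72 ± 0.08 (SE, edgeR adjusted p = 2.39e-07). Whether the genotype effect differed between times did not pass the test: the interaction was -0.15 ± 0.11 on the log2 scale (edgeR adjusted p = 0.93). Psme4 shares 18357 bases with Erlec1 on the opposite strand, and no source used here states if the counting used strand. Erlec1 had log2 fold changes of -0.08 at ZT0 and -0.14 at ZT12, both smaller than those of Psme4.

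Markers of cell types moved between genotypes too. Beside the counts below, 7.35% of all genes tested were called lower at ZT0 and 10.7% at ZT12. The summed level of 6 cardiomyocyte markers was 88610 to 94040 CPM in GRflox against 77290 to 83580 CPM in CardioGRKO at ZT0, with 4 of 6 called lower. At ZT12 the sums were 93190 to 96690 and 78140 to 89230 CPM, with 5 of 6 lower. The marker Actc1 went the other way, with a log2 fold change of 0.12 ± 0.04 at ZT0 (edgeR adjusted p = 0.0754). Its ZT12 means were 9595 CPM in GRflox and 10250 CPM in CardioGRKO. Of 6 endothelial markers, 4 were lower at ZT0 and 3 at ZT12, with sums of 1242 to 1372 against 1076 to 1196 CPM and 991.3 to 1079 against 860.9 to 1004 CPM. Their part in the fall of Psme4 and Psme1 was not tested. Pericyte and smooth muscle markers fell in 3 of 6 cases at ZT0 and 1 of 6 at ZT12, with sums of 1175 to 1311 against 1009 to 1205 CPM at ZT0 and 1180 to 1385 against 991.0 to 1272 CPM at ZT12. Fibroblast markers had 0 of 6 called at either time, with sums of 806.5 to 939.5 against 904.7 to 974.5 CPM and 831.9 to 1031 against 871.7 to 1004 CPM (0 and 1 at an unadjusted p under 0.05, and 0 by DESeq2).

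Psme1 and Psme2 encode the alpha and beta chains of PA28, which assemble into 1 mixed ring and are known as interferon-inducible genes. In GRflox at ZT0 Psme1 (chr14:55578494-55581527, plus strand) held 127, 122, 116, 129 and 123 CPM, and in CardioGRKO 102, 94.7, 107, 104 and 115 CPM. The genotypes did not overlap at ZT0, with a log2 fold change of -0.24 ± 0.06 (SE, edgeR adjusted p = 0.00866). At ZT12 the GRflox libraries held 125, 126, 108, 108 and 129 CPM and the CardioGRKO libraries 92.8, 109, 95.3, 103 and 108 CPM. Here the ranges overlapped, since replicates 3 and 4 of GRflox were among the CardioGRKO values, and the log2 fold change was -0.23 ± 0.06 (SE, edgeR adjusted p = 0.00805).

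Psme2, the partner chain, was called at neither time. Its means were 27.99 ± 1.13 CPM in GRflox against 28.9 ± 1.57 CPM in CardioGRKO at ZT0, and 26.9 ± 2.23 and 27.4 ± 2.68 CPM at ZT12 (SD, n = 5 each). The log2 fold changes were 0.04 ± 0.07 (edgeR adjusted p = 0.774) and 0.03 ± 0.07 (edgeR adjusted p = 0.824). The ratio of Psme1 to Psme2 is given as a description only, since the pair was chosen with both values known. Per kilobase of transcript, Psme1 stood at 3.82 ± 0.24 times Psme2 in GRflox at ZT0 and 3.15 ± 0.35 times in CardioGRKO (SD, n = 5 each).

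Psme3, the nuclear PA28-gamma chain, went from 126 ± 6.58 CPM in GRflox to 112 ± 8.34 CPM in CardioGRKO at ZT12 (SD, n = 5 each), a log2 fold change of -0.16 ± 0.05 (edgeR adjusted p = 0.0214). The groups overlapped, and the call was lost without GRflox ZT12 replicate 3 or 4 or CardioGRKO ZT12 replicate 2 (edgeR adjusted p = 0.0538, 0.0581 and 0.0713) and in a fit to the ZT12 groups alone (edgeR adjusted p = 0.0612). At ZT0 Psme3 was at -0.07 ± 0.05 (edgeR adjusted p = 0.421). Psmf1, which encodes the inhibitor PI31, was not called (0.12 ± 0.06, edgeR adjusted p = 0.2, at ZT0 and 0.08 ± 0.06, edgeR adjusted p = 0.416, at ZT12). Psme2b, a close copy of Psme2 whose reads the counting may have shared with it, had 11 to 77 reads per library and was not called.

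**Figure D2:**
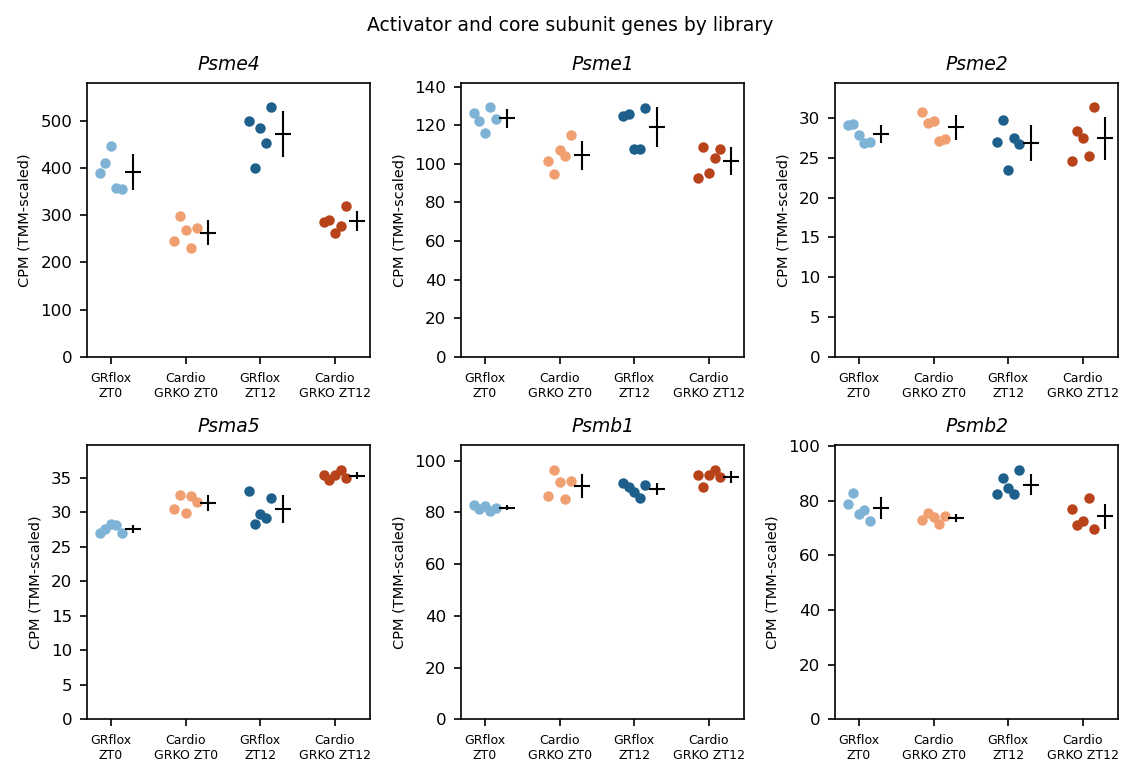
TMM-scaled CPM (y axis from 0) of Psme4, Psme1, Psme2, Psma5, Psmb1 and Psmb2 in each of the 20 libraries, 5 points per group, with black marks for the mean ± SD. For Psme4 the CardioGRKO points (231.1 to 320.2) lie below the GRflox points (355.3 to 528.4) at each time, while Psme2 overlaps between genotypes.

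Among the 3 immunoproteasome genes, Psmb10 alone was called. It encodes the inducible trypsin-like subunit and lies at chr8:105935728-105938392 on the minus strand. At ZT0 the GRflox libraries held 34.6, 33.8, 34.3, 33.8 and 32.8 CPM, and the CardioGRKO libraries 55.8, 49.5, 41.9, 45.7 and 38.5 CPM. Every CardioGRKO library was above every GRflox library, and the CardioGRKO values were much more spread out. The means were 33.8 ± 0.685 and 46.3 ± 6.73 CPM (SD, n = 5 each), a log2 fold change of 0.44 ± 0.08 (SE, edgeR adjusted p = 0.000267). The highest value came from the shallowest library, and without it the log2 fold change was 0.39 (edgeR adjusted p = 0.000764).

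At ZT12 Psmb10 held 34.6, 36.2, 35.8, 35.4 and 30.7 CPM in GRflox against 54.7, 48.02, 55.3, 50.2 and 43.8 CPM in CardioGRKO. The genotypes did not overlap here either, and no CardioGRKO library came within the GRflox range. The means were 34.5 ± 2.23 and 50.4 ± 4.80 CPM (SD, n = 5 each), with a log2 fold change of 0.55 ± 0.08 (SE, edgeR adjusted p = 9.70e-06). The interaction was 0.10 ± 0.11 (edgeR adjusted p = 0.952).

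Psmb8 encodes the inducible chymotrypsin-like subunit, and Psmb9 the inducible subunit that takes the place of the caspase-like Psmb6 product. The 2 genes lie close together on chromosome 17 beside the antigen peptide transporter genes. Psmb8 held 11.5, 13.8, 13.96, 8.50 and 13.8 CPM in GRflox against 12.7, 11.6, 13.01, 12.2 and 8.49 CPM in CardioGRKO at ZT0. At ZT12 it held 11.3, 13.7, 12.7, 11.3 and 9.99 CPM in GRflox against 9.93, 10.9, 13.1, 9.76 and 12.97 CPM in CardioGRKO. All 4 groups overlapped, and the log2 fold changes between genotypes were -0.10 ± 0.13 (edgeR adjusted p = 0.682) and -0.07 ± 0.13 (edgeR adjusted p = 0.739).

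Psmb9 held 5.45, 4.20, 5.90, 4.85 and 6.59 CPM in GRflox against 4.61, 5.11, 5.33, 6.36 and 4.69 CPM in CardioGRKO at ZT0. At ZT12 the values were 3.88, 6.90, 4.38, 4.29 and 5.09 CPM and 4.30, 4.64, 4.48, 4.68 and 5.39 CPM. The genotypes overlapped at both times, with log2 fold changes of -0.03 ± 0.14 (edgeR adjusted p = 0.94) and -0.08 ± 0.14 (edgeR adjusted p = 0.768). Psmb9 rested on 28 to 210 reads per library, against 77 to 443 for Psmb8 and 339 to 1889 for Psmb10, so its changes were the least precisely measured of the 3.

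Each inducible subunit was also set against the constitutive subunit whose place it takes. Per kilobase, Psmb10 stood at 0.261 ± 0.00404 of Psmb7 in GRflox and 0.346 ± 0.0606 in CardioGRKO at ZT0, and at 0.251 ± 0.0285 and 0.380 ± 0.0431 at ZT12 (SD, n = 5 each). The genotypes did not overlap in this ratio at either time. These ratios were chosen with the genes' values known and carry no test. Psmb8 stood at 0.165 ± 0.0372 of Psmb5 in GRflox and 0.150 ± 0.0299 in CardioGRKO at ZT0, and at 0.162 ± 0.0194 and 0.154 ± 0.0283 at ZT12. Psmb9 stood at 0.0228 ± 0.00397 and 0.0224 ± 0.00373 of Psmb6 at ZT0, and at 0.0209 ± 0.00533 and 0.0208 ± 0.00218 at ZT12.

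Interferon and antigen processing genes were read beside the immunoproteasome, since they are known to be induced with it. None of 20 such genes (among them Tap1, Tap2, B2m and Irf1) was called between genotypes at either time by edgeR or by DESeq2, and 1 at ZT0 and 0 at ZT12 had an unadjusted p under 0.05. Over all genes tested, 14.7% were called at ZT0 and 21.1% at ZT12. The 20 genes had a median log2 fold change of -0.09 at ZT0 and -0.05 at ZT12. With time, 1 of the 20 was higher and 1 lower at ZT12 in each genotype, beside 17.3% of all genes called in GRflox and 9.17% in CardioGRKO. The gene with the smallest p at ZT0 was Tap2 (-0.13 ± 0.06, edgeR adjusted p = 0.155). Macrophage markers had 0 of 5 called between genotypes at either time (0 and 1 at an unadjusted p under 0.05, and 0 by DESeq2), with summed levels of 153.1 to 223.8 CPM in GRflox against 160.7 to 203.9 CPM in CardioGRKO at ZT0, and 187.7 to 209.5 and 179.8 to 230.1 CPM at ZT12. Lymphocyte markers summed to 0.367 to 3.13 CPM over all libraries, and 4 of 6 (Cd3e, Cd3g, Cd8a and Ms4a1) were too low to be tested.

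**Figure D3:**
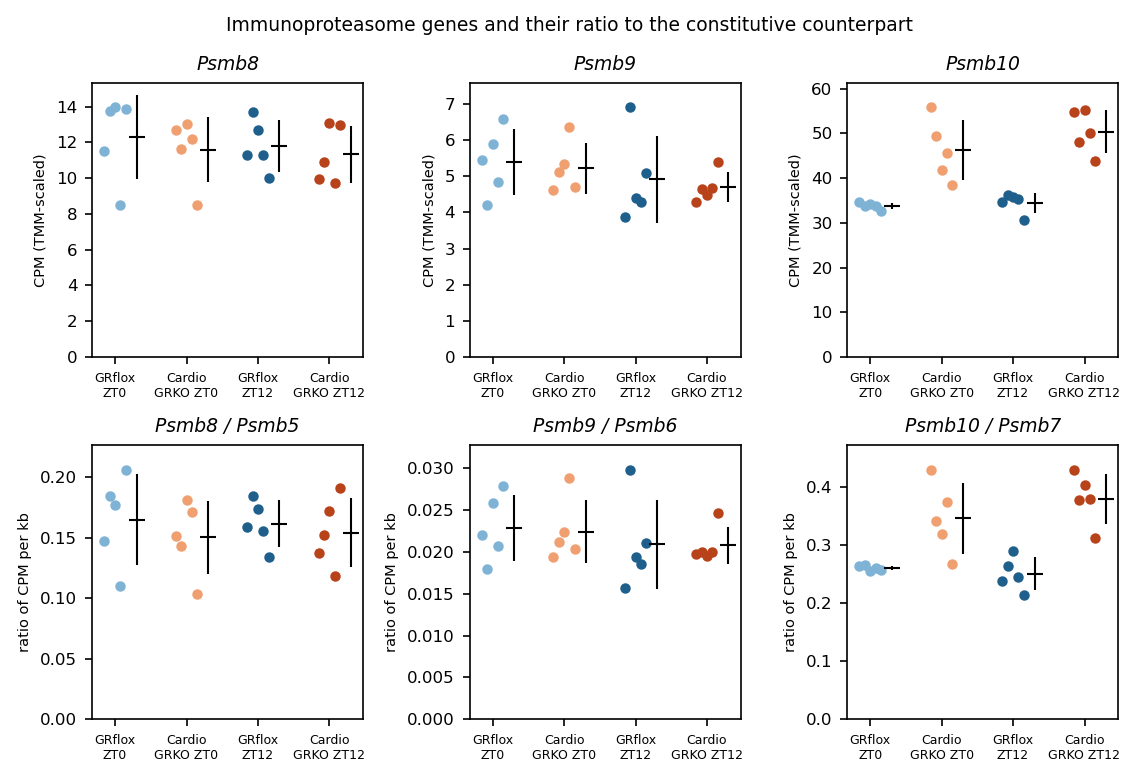
Top, TMM-scaled CPM of Psmb8, Psmb9 and Psmb10 in each library. Bottom, the ratio of each to its constitutive counterpart in CPM per kilobase of transcript, with 5 points per group and black marks for the mean ± SD. CardioGRKO points of Psmb10 (38.5 to 55.8 CPM) lie above the GRflox points (30.7 to 36.2 CPM), while Psmb8 and Psmb9 overlap in all groups.

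The constitutive core and cap held 31 subunits: 7 of the alpha ring, 7 of the beta ring, 6 ATPases and 11 other 19S subunits. At ZT0, 4 of 31 were called higher in CardioGRKO (Psma2, Psma5, Psmb1 and Psmd13) and 0 lower, beside 7.36% higher and 7.35% lower over all genes tested, with a median log2 fold change of 0.05 and a range from -0.07 (Psmb2) to 0.22 (Psmd14). At ZT12, 1 was higher (Psma5) and 2 lower (Psma6 and Psmb2), beside 10.4% higher and 10.7% lower over all genes, with a median of 0.01 and a range from -0.21 (Psmb2) to 0.21 (Psma5). In all, 30 of 31 at ZT0 and 29 of 31 at ZT12 were within 0.2 of no change. The share of all genes tested within 0.2 was not counted, so this does not set the subunits apart. Their summed level was 2856 ± 55.2 CPM in GRflox against 2955 ± 119 CPM in CardioGRKO at ZT0, and 3032 ± 85.3 and 3025 ± 73.0 CPM at ZT12 (SD, n = 5 each).

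Psma5 encodes an alpha ring subunit. At ZT0 it held 27.01, 27.6, 28.2, 28.1 and 26.9 CPM in GRflox against 30.5, 32.5, 29.9, 32.3 and 31.4 CPM in CardioGRKO. At ZT12 it held 33.1, 28.3, 29.8, 29.1 and 32.1 CPM in GRflox against 35.4, 34.6, 35.3, 36.1 and 35.02 CPM in CardioGRKO. The genotypes did not overlap at either time, although the shift was small. The log2 fold change was 0.19 ± 0.05 at ZT0 (SE, edgeR adjusted p = 0.00917) and 0.21 ± 0.05 at ZT12 (SE, edgeR adjusted p = 0.00168).

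Psmb1 encodes a beta ring subunit without a catalytic site. It held 82.9, 81.3, 82.6, 80.6 and 81.6 CPM in GRflox against 86.1, 96.4, 91.7, 85.1 and 91.9 CPM in CardioGRKO at ZT0. GRflox libraries were tightly grouped below all CardioGRKO libraries, and the log2 fold change was 0.14 ± 0.04 (SE, edgeR adjusted p = 0.0125). At ZT12 the same comparison gave 91.2, 89.96, 87.7, 85.7 and 90.5 CPM and 94.5, 89.9, 94.4, 96.2 and 93.8 CPM, with overlap and a log2 fold change of 0.08 ± 0.04 (edgeR adjusted p = 0.171).

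Psmb2 encodes another beta ring subunit without a catalytic site. At ZT0 it held 78.9, 82.8, 75.2, 76.7 and 72.4 CPM in GRflox against 72.8, 75.3, 73.96, 71.3 and 74.4 CPM in CardioGRKO, which overlapped (-0.07 ± 0.05, edgeR adjusted p = 0.371). At ZT12 it held 82.5, 88.2, 84.5, 82.3 and 91.2 CPM in GRflox against 76.9, 71.2, 72.5, 80.8 and 69.7 CPM in CardioGRKO. There the genotypes were separate, with a log2 fold change of -0.21 ± 0.05 (SE, edgeR adjusted p = 0.00213). Its interaction was -0.14 ± 0.07 (edgeR adjusted p = 0.822), so a difference between the times was not shown.

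Psma6, an alpha ring subunit gene, held 92.9, 99.8, 101, 107 and 104 CPM in GRflox against 92.1, 92.9, 89.8, 93.1 and 91.1 CPM in CardioGRKO at ZT12. The groups touched at GRflox replicate 1, and the log2 fold change was -0.14 ± 0.04 (edgeR adjusted p = 0.0196). The call was lost without GRflox ZT12 replicate 4 (edgeR adjusted p = 0.0633). At ZT0 Psma6 held 93.2, 90.1, 93.2, 92.2 and 88.6 CPM in GRflox against 89.4, 90.1, 83.9, 87.4 and 95.8 CPM in CardioGRKO (-0.04 ± 0.04, edgeR adjusted p = 0.642).

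Psma2, an alpha ring subunit gene, and Psmd13, a gene of the 19S lid, were called higher at ZT0 by small margins. Psma2 went from 52.7 ± 1.27 to 59.6 ± 5.05 CPM (0.17 ± 0.05, edgeR adjusted p = 0.0388). Its call was lost without any of GRflox ZT0 replicates 1 to 4 or CardioGRKO ZT0 replicate 1 or 5 (edgeR adjusted p = 0.0586 to 0.103), and in a fit to the ZT0 groups alone (edgeR adjusted p = 0.0533). Psmd13 went from 50.95 ± 3.10 to 57.7 ± 5.16 CPM (0.17 ± 0.06, edgeR adjusted p = 0.0498). Its call was lost without any of 7 libraries, GRflox ZT0 replicates 1, 2, 4 and 5 and CardioGRKO ZT0 replicates 1, 2 and 5 (edgeR adjusted p = 0.0738 to 0.122), and with the replicate number as a block (edgeR adjusted p = 0.0683). The Psmd13 call was also lost with no filter on low counts (edgeR adjusted p = 0.058) and in a fit to the ZT0 groups alone (edgeR adjusted p = 0.086). Psmd14, the deubiquitinase of the 19S lid, had the highest value of the 31 at ZT0 without a call (0.22 ± 0.08, edgeR adjusted p = 0.0625). It was called without GRflox ZT0 replicate 2 (edgeR adjusted p = 0.0486) or CardioGRKO ZT0 replicate 4 (edgeR adjusted p = 0.0163), and by the DESeq2 test (adjusted p = 0.0434). Without the shallowest library, CardioGRKO ZT0 replicate 1, the log2 fold change of Psmd14 was 0.15 (edgeR adjusted p = 0.171).

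The 6 ATPase genes, which form the ring that unfolds substrates, had 0 called between genotypes at either time by edgeR or DESeq2. Of all genes tested, edgeR called 14.7% at ZT0 and 21.1% at ZT12. Among the ATPase genes, 1 at ZT0 and 0 at ZT12 had an unadjusted p under 0.05. Their log2 fold changes ran from -0.01 (Psmc3) to 0.11 (Psmc1) at ZT0 and from -0.05 (Psmc3) to 0.09 (Psmc1) at ZT12. At ZT12 the whole 19S cap had 0 of 17 called, beside 21.1% of all genes tested, with 0 at an unadjusted p under 0.05 and 0 by DESeq2. Without CardioGRKO ZT0 replicate 1, 6 of 49 members were called at ZT0, 4 higher and 2 lower. In that run 1636 of 14115 genes tested were called, 893 higher and 743 lower.

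Assembly chaperones help the rings form and then leave. Of 7 such genes, Psmg2 alone was called, at ZT0. It held 11.2, 10.7, 12.6, 11.6 and 11.7 CPM in GRflox against 13.01, 14.99, 15.4, 13.4 and 12.7 CPM in CardioGRKO at ZT0, and 12.1, 12.6, 13.9, 12.4 and 12.9 CPM and 14.3, 12.8, 13.1, 16.2 and 13.5 CPM at ZT12. The ZT0 groups did not overlap, though they nearly met, with a log2 fold change of 0.28 ± 0.08 (SE, edgeR adjusted p = 0.0159). The call was lost without CardioGRKO ZT0 replicate 2 (edgeR adjusted p = 0.0515) or replicate 3 (edgeR adjusted p = 0.05). At ZT12 the log2 fold change was 0.13 ± 0.08 (edgeR adjusted p = 0.248).

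Levels of members differed widely within GRflox at ZT0. Per kilobase of 1 principal transcript, Psmb6, the constitutive caspase-like subunit gene, was highest at 175.0 ± 5.36 CPM (SD, n = 5), followed by the ATPase gene Psmc3 at 138 ± 1.77 CPM and Psme1 at 111 ± 4.50 CPM. These 3 did not overlap in mean ± SD. Psme4 ranked 17 at 60.3 ± 5.85 CPM per kilobase, and its SD covered its neighbours Psma1 (62.0 ± 2.57) and Psmc2 (57.6 ± 2.11). Psmb10 ranked 31 at 25.8 ± 0.523 CPM per kilobase, beside Psmd13 at 25.6 ± 1.56. Psmb8 ranked 39 at 7.57 ± 1.45 and Psmb9 45 at 3.99 ± 0.682. The germ-cell subunit gene Psma8 had 3 to 20 reads per library and was not called between genotypes or times.

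Between times of day, 6 of 49 members were called higher at ZT12 in GRflox and 0 lower (12.2%), beside 17.3% of all genes tested (8.13% higher and 9.17% lower). They were Psma5, Psma6, Psmb1, Psmb2, Psmd4 and Psme4, and 2 members were called without GRflox ZT12 replicate 5. In CardioGRKO 1 of 49, Psma5, was called higher and 0 lower (2.04%), beside 9.17% of all genes tested (4.42% higher and 4.75% lower). Of the 31 constitutive subunits, 29 had a log2 fold change above 0 in GRflox (median 0.10, from -0.04 for Psmb5 to 0.21 for Psmd4) and 20 in CardioGRKO (median 0.04). Over all genes tested the medians were 0.0081 and 0.0017. Cell type markers moved with time as well, and their part in these values was not tested: 4 of 6 endothelial markers in GRflox and 3 of 6 in CardioGRKO were lower at ZT12, 1 of 6 cardiomyocyte markers was higher in GRflox and 1 of 6 lower in CardioGRKO, and 2 of 5 macrophage markers in GRflox and 1 of 5 in CardioGRKO were higher. Of the pericyte and smooth muscle markers 2 of 6 were higher in CardioGRKO, of the fibroblast markers 1 of 6 was lower in GRflox, and of the 2 lymphocyte markers tested 1 was lower in each genotype.

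**Figure D4:**
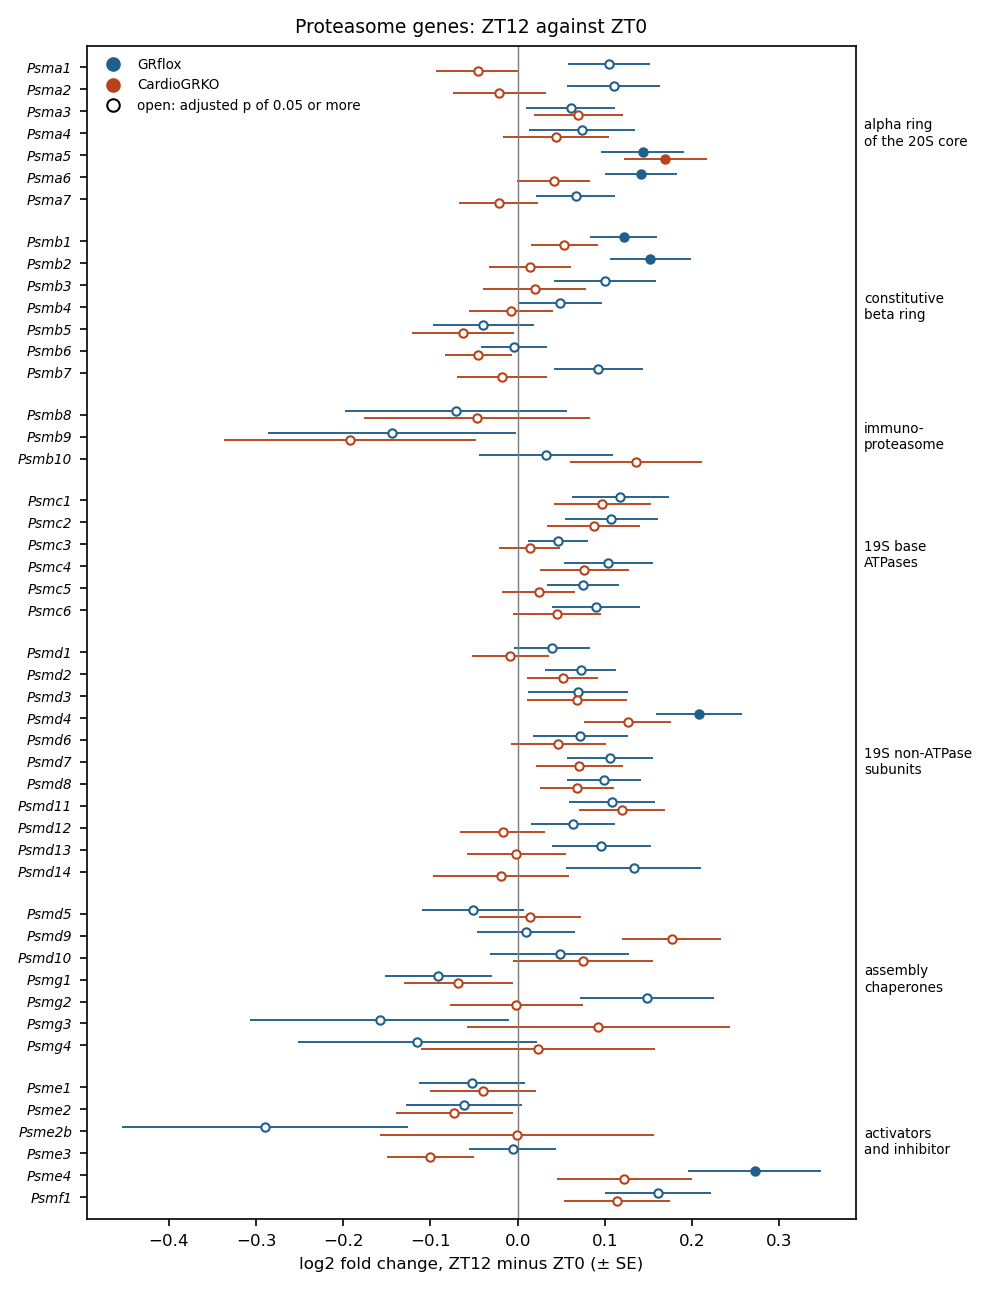
Log2 fold change of 47 proteasome genes at ZT12 against ZT0 (x axis, ± SE) in GRflox (blue) and CardioGRKO (red), grouped by role, with filled points for adjusted p under 0.05. The genes drawn are the tested members without Psma8 and Psmc3ip, and include Psmb8, Psmb9 and Psmb10. Most core and 19S points of GRflox lie to the right of 0 (29 of 31), and those of CardioGRKO lie nearer to it.

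Psmd4 encodes a ubiquitin receptor of the 19S cap and had the smallest p for time in GRflox. It held 83.3, 86.5, 84.05, 84.7 and 83.6 CPM at ZT0 and 97.1, 99.5, 91.3, 101 and 98.6 CPM at ZT12. The times did not overlap, with a log2 fold change of 0.21 ± 0.05 (SE, edgeR adjusted p = 0.00462). In CardioGRKO it held 91.7, 92.8, 85.1, 82.3 and 73.2 CPM at ZT0 and 90.98, 89.2, 95.1, 95.03 and 93.6 CPM at ZT12. Those groups overlapped, with a wide spread at ZT0 and a log2 fold change of 0.13 ± 0.05 (edgeR adjusted p = 0.123).

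The other time calls were small. Psme4 was higher at ZT12 in GRflox by 0.27 ± 0.08 on the log2 scale (edgeR adjusted p = 0.015), with overlap between the times, and the call was lost without GRflox ZT12 replicate 5 (edgeR adjusted p = 0.0522). In CardioGRKO its log2 fold change was 0.12 ± 0.08 (edgeR adjusted p = 0.374). Psma6 was higher in GRflox by 0.14 ± 0.04 (edgeR adjusted p = 0.0186), and not without GRflox ZT12 replicate 4 (edgeR adjusted p = 0.0608). In CardioGRKO the log2 fold change of Psma6 was 0.04 ± 0.04 (edgeR adjusted p = 0.62).

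Psmb2 was higher at ZT12 in GRflox by 0.15 ± 0.05 (edgeR adjusted p = 0.0249), and lost the call without GRflox ZT0 replicate 3 or 5 or GRflox ZT12 replicate 2 or 5 (edgeR adjusted p = 0.0585 to 0.0771). Psmb1 was higher by 0.12 ± 0.04 (edgeR adjusted p = 0.0287), with no overlap between the times. Its call was lost without GRflox ZT0 replicate 1, 2, 4 or 5 or GRflox ZT12 replicate 1, 2 or 5 (edgeR adjusted p = 0.0511 to 0.0657). It was also lost with no filter on low counts (edgeR adjusted p = 0.0789).

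Psma5 was the only member called between times in both genotypes, by 0.14 ± 0.05 in GRflox (edgeR adjusted p = 0.0386) and 0.17 ± 0.05 in CardioGRKO (edgeR adjusted p = 0.0242). The ZT0 and ZT12 libraries did not overlap in either genotype. In GRflox the call was lost without GRflox ZT0 replicate 1, 2, 4 or 5 or GRflox ZT12 replicate 1, 3 or 5 (edgeR adjusted p = 0.0505 to 0.119) and with the replicate number as a block (edgeR adjusted p = 0.055). In CardioGRKO it was lost without CardioGRKO ZT0 replicate 1, 3 or 5 or CardioGRKO ZT12 replicate 1, 4 or 5 (edgeR adjusted p = 0.0508 to 0.104). With no filter on low counts the Psma5 call was lost in both genotypes (edgeR adjusted p = 0.0903 in GRflox and 0.0572 in CardioGRKO). The same held in fits to the compared groups alone (edgeR adjusted p = 0.0932 and 0.0591). The immunoproteasome genes had 0 of 3 called between times in either genotype by edgeR or DESeq2, and 0 at an unadjusted p under 0.05.

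Whether the change with time differed between genotypes was tested as an interaction. It called 0 of 49 members by edgeR and 0 by DESeq2, beside 0.186% of all genes tested (0.0643% higher and 0.121% lower), and 3 members (Psma1, Psmd9 and Psmb2) had an unadjusted p under 0.05. Psma1, an alpha ring subunit gene, held 72.7, 79.3, 75.6, 72.2 and 72.3 CPM in GRflox at ZT0 and 78.3, 80.8, 78.8, 80.96 and 81.4 CPM at ZT12. In CardioGRKO it held 71.3, 78.04, 78.2, 69.5 and 82.2 and 71.7, 69.00, 75.9, 78.2 and 72.8 CPM. The GRflox mean was higher at ZT12 and the CardioGRKO mean lower, with an interaction of -0.15 ± 0.07 (edgeR adjusted p = 0.764).

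Psmd9 encodes a chaperone of the 19S base. It held 17.5, 18.7, 19.02, 19.5 and 18.4 CPM in GRflox at ZT0 and 16.8, 19.4, 18.4, 20.03 and 19.1 CPM at ZT12, which overlapped. In CardioGRKO it held 17.5, 16.9, 16.5, 18.03 and 17.6 CPM at ZT0 and 18.7, 18.8, 20.04, 20.8 and 19.3 CPM at ZT12, which did not overlap (0.18 ± 0.06, edgeR adjusted p = 0.0511). The interaction was 0.17 ± 0.08 (edgeR adjusted p = 0.822). Of the 31 constitutive subunits, 28 had an interaction below 0, with a median of -0.04 beside -0.0026 over all genes. The 4 groups share their libraries between these comparisons, so these signs are a description.

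The constitutive subunits varied together across libraries. After the group means were removed, the median Pearson correlation over 20 libraries was 0.319 for the 465 pairs among the 31 subunits and -0.0095 between them and all other tested genes. It was 0.522 among the ATPases, 0.396 in the beta ring, 0.395 among the other 19S subunits and 0.219 in the alpha ring. For the members called between genotypes at both times, the median correlation with the 31 subunits (the other 30 for Psma5) was 0.216 for Psme4, 0.134 for Psma5, 0.0836 for Psmb10 and -0.0524 for Psme1. The immunoproteasome genes Psmb8 and Psmb9 were at -0.0175 and -0.132. All genes of a library share its depth and tissue sample, so these correlations are a description.

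Genes that serve or control the proteasome were taken as a list of 26 symbols, of which 23 were found and tested. At ZT0, 2 were higher and 1 lower in CardioGRKO, beside 7.36% higher and 7.35% lower over all genes tested. Vcp, the ATPase that extracts ubiquitinated proteins for degradation, rose (0.14 ± 0.04, edgeR adjusted p = 0.00758), as did Usp14, a deubiquitinase bound to the 19S cap (0.20 ± 0.05, edgeR adjusted p = 0.00904).

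At ZT12, 1 of the 23 was higher and 3 lower, beside 10.4% higher and 10.7% lower over all genes tested. Vcp was again higher (0.12 ± 0.04, edgeR adjusted p = 0.0147). Bach1, a repressor at antioxidant response elements, fell (-0.34 ± 0.07, edgeR adjusted p = 0.00127), as did AI314180, the proteasome adaptor also called Ecpas (-0.13 ± 0.04, edgeR adjusted p = 0.0166). The genes of the factors known to drive proteasome transcription, Nfe2l1 and Nfe2l2, were called at neither time. Nfe2l2 was at -0.16 ± 0.06, edgeR adjusted p = 0.0677 at ZT12.

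With time, 4 of the 23 were higher at ZT12 in GRflox and 1 lower, beside 8.13% higher and 9.17% lower over all genes tested. The higher ones included Bach1 (0.43 ± 0.07, edgeR adjusted p = 0.000154), Nfe2l2 (0.35 ± 0.06, edgeR adjusted p = 0.000275) and Mafg, a partner of both (0.24 ± 0.06, edgeR adjusted p = 0.00851), while Ube3c, a proteasome-bound ubiquitin ligase, fell (-0.16 ± 0.04, edgeR adjusted p = 0.00674). In CardioGRKO 0 of 23 were called by edgeR, beside 9.17% of all genes tested. DESeq2 called 1, and 6 had an unadjusted p under 0.05. The interaction called 0 of 23 by edgeR and by DESeq2, beside 0.186% of all genes by edgeR. It had 2 at an unadjusted p under 0.05, Bach1 (-0.34 ± 0.10, edgeR adjusted p = 0.353) and Nfe2l2 (-0.20 ± 0.09, edgeR adjusted p = 0.777).

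Of 12 ubiquitin and ubiquitin-conjugation genes, 0 were called between genotypes at ZT0 (0 at an unadjusted p under 0.05 and 0 by DESeq2), beside 14.7% of all genes tested. At ZT12 1 was higher, beside 10.4% of all genes: Uba6, a ubiquitin-activating enzyme (0.26 ± 0.08, edgeR adjusted p = 0.0196). With time, 2 of the 12 were lower at ZT12 in each genotype, beside 9.17% of all genes lower in GRflox and 4.75% in CardioGRKO. Among them were Uba6 in GRflox (-0.28 ± 0.08, edgeR adjusted p = 0.0172) and Ube2d2a, a conjugating enzyme, in CardioGRKO (-0.17 ± 0.05, edgeR adjusted p = 0.0312).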

How the data were processed

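Left ventricle RNA of 20 libraries, 5 in each of 4 groups, had been read as paired 75-base poly(A) RNA-seq, per the labels' protocols. The deposited values are whole-number read counts per gene, not normalized by the authors. Per the submitters' processing notes, the build was mm10 and the tools included DESeq2 1.38.3, Subread 1.5.1 with featureCounts, and STAR 2.5.1. Not given in the sources used here: strand use, the handling of reads that match several genes, and the annotation release.

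Counts were added up per Entrez identifier, which touched none of the members. Genes were kept by filterByExpr (minimum count 10, minimum total 15), and 14007 remained. edgeR 4.0.16 (R 4.3.3) with its quasi-likelihood test was fitted to all 20 libraries with TMM scaling (factors 0.961 to 1.04), as group means without a replicate block, and p-values were adjusted by Benjamini-Hochberg over all genes within each comparison. CPM is scaled by TMM. On simulated data for the ZT0 genotype comparison (13925 genes), the test called 8.82% of genes changed by 0.2 on the log2 scale, 51.5% of those changed by 0.4 and 93.9% of those changed by 1, and 5.56% of its calls were false. Only 68, 66 and 66 genes were changed there, whereas 14.7% of genes were called in the real comparison. The simulated shares therefore do not give the sensitivity for the members in these data.

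Group and replicate came from the titles and characteristics. No pair of libraries in a group agreed within counting noise: chi-square per gene was 4.22 to 21. Per-kilobase levels used the length of 1 principal GENCODE transcript. Coordinates and promoters came from RefSeq on GRCm38.p6, the assembly also called mm10.

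The members and gene lists were chosen with earlier results of these data known. Library values were given for Psmb8, Psmb9, Psmb10 and up to 6 called members with the smallest p in each comparison (up to 2 where none was called), and list genes were named among the 4 with the smallest p. Some genes of the lists that this rule takes are not reported here by name; the counts include them. Psma2, Psmd13, Psmd14, Psme2, Psme3 and Psmf1, the marker Actc1, and the pairs set as ratios, were named after their values were seen. The alternatives were DESeq2 size factors, the DESeq2 1.42.0 test, no filter, a stricter filter (1 CPM in 5 libraries), the replicate block, the compared groups alone and each library left out.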

Additional observations from a re-analysis of the deposited data

How the results depend on the processing

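Of 22 calls on named members, 11 kept their call and direction in every alternative run: Psme4, Psmb10, Psme1 and Psma5 at both times, Psmb1 at ZT0, Psmb2 at ZT12 and Psmd4 with time in GRflox. The other 11 lost the call in at least 1 alternative, none reversed, and the cause was not tested. For Psme4 the log2 fold change stayed between -0.62 and -0.52 at ZT0 and between -0.78 and -0.68 at ZT12, and for Psmb10 between 0.39 and 0.50 and between 0.51 and 0.59. Leaving out 1 library at a time gave 6 to 10 members called at ZT0, 5 to 9 at ZT12, 2 to 5 with time in GRflox (3 without GRflox ZT0 replicate 5, 2 without GRflox ZT12 replicate 5) and 0 to 1 with time in CardioGRKO. In the same runs, all genes called numbered 1636 to 1968 at ZT0 and 2498 to 2872 at ZT12. With time, all genes called numbered 1931 to 2252 in GRflox and 874 to 1371 in CardioGRKO. The single call with time in CardioGRKO, Psma5, became 0 with no filter, 0 in a fit to the compared groups alone, and 2 with the stricter filter. All genes called in these 3 settings were 1155 of 19291, 996 of 13748 and 1317 of 13017. Over all genes the interaction called 26, against 69 by the DESeq2 test and 16 to 33 with 1 library left out. Signs turned only in uncalled values with 1 library left out: Psmb8 interaction (-0.0596 to 0.118), Psmb9 at ZT0 (-0.116 to 0.0609), at ZT12 (-0.149 to 0.0888) and in the interaction (-0.137 to 0.117), and Psme2 at ZT12 (-0.0223 to 0.0685).

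With the replicate number as a block, 7, 7, 5, 2 and 0 members were called at ZT0, at ZT12, with time in GRflox, with time in CardioGRKO and in the interaction. In the same order, 2194, 3111, 2513, 1359 and 38 of all 14007 genes were called. Libraries that share a number did not deviate together in every pair (correlations -0.272 to 0.234, against -0.3 to 0.316 for other pairs), and 7 of 20 correlated best with their own number, a hint from the data and not the design, so the numbers were not taken to pair the libraries. Depth limits Psmb9 (28 to 210 reads per library), Psme2b, Psmc3ip and Psma8 most.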
